A study of Mus musculus with 4 samples.

Results

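Matrix metalloproteinases are secreted or membrane-bound proteases that use a zinc ion to cut collagens, proteoglycans and other proteins of the extracellular matrix, and the tissue inhibitors of metalloproteinases (TIMPs) are small secreted proteins that bind their active site. They are made as inactive proenzymes, and the membrane protease encoded by Mmp14 activates the gelatinase encoded by Mmp2 in a complex that also holds TIMP-2, so an inhibitor can take part in activation. Stromal cells of the bone marrow are known to make several of these enzymes and inhibitors. Described here are 8 genes chosen by name from the 42977 genes of the deposited table. They are the gelatinases Mmp2 and Mmp9, the stromelysin Mmp3, the collagenase Mmp13, the membrane-type protease Mmp14 and the inhibitors Timp1, Timp2 and Timp3. All 8 had a row in that table.

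The RNA came from exosomes, small vesicles collected from the medium of cultured bone marrow mesenchymal stem cells (MSCs). For MSCATV-Exo (2 libraries) the cells were first cultured with atorvastatin at 1 µmol/L, a statin that lowers cholesterol, and for MSC-Exo (2 libraries) with an equal volume of its solvent DMSO. Both groups came from male SD rats aged 6 to 8 weeks and from cells at passages 3 to 4. The samples are registered under mouse, while the culture protocol and the genome build are of rat. Pretreatment lasted 24 h by one field of the labels and 48 h by another. The labels describe both ultracentrifugation and an isolation reagent and do not say whether the libraries within a group came from different rats or dishes. Errors and p-values therefore measure the spread between these libraries, which may be technical. Each library is a bulk measure, so fewer vesicles that carry an RNA and less of it per vesicle cannot be told apart.

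The MSCATV-Exo libraries held 5947020 and 5598378 gene counts and the MSC-Exo libraries 5350295 and 5355098. Features of ribosomal RNA, 8 in all with LOC257642, took 38.6% to 43.3% of the counts in MSCATV-Exo and 37.1% to 37.5% in MSC-Exo, and the 8 genes together took 0.0126% and 0.0153% in MSCATV-Exo and 0.00791% and 0.0110% in MSC-Exo. Of 12 MSC markers, Vim had 225 and 214 RPKM (reads scaled by gene length and by the library's gene count) in MSCATV-Exo and 187 and 202 RPKM in MSC-Exo. Thy1 lay between 14.7 and 24.2 RPKM over the 4 libraries, whereas Nt5e lay between 2.1 and 6.2 RPKM. To show what level a gene can reach without being typical of these cells, 1188 olfactory receptor genes, known from the nose, were used. Their median was 1.71 and 2.28 RPKM in MSCATV-Exo and 2.47 and 2.36 RPKM in MSC-Exo, and the highest 90th percentile in a library was 8.24 RPKM. By mean RPKM over the 4 libraries, 7 of the 12 MSC markers lay above the 90th percentile of these genes (6.08 RPKM). By the same mean, protein-coding genes had a median of 4.76 RPKM and a 75th percentile of 6.79 RPKM, so many other genes passed that level too. A count of 0 would have allowed up to 3 counts, or 0.504 to 0.561 CPM (counts scaled to a common library total), and no member stood at 0 in any library.

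On the RPKM scale, which allows levels of different genes to be compared, the 8 genes were low to moderate in these vesicles. By their mean over the 4 libraries the order was Mmp14 (10.8 ± 5.45 RPKM; SD, n = 4 libraries of both groups), Timp2 (10.1 ± 1.43), Timp1 (7.64 ± 4.79), Mmp2 (7.41 ± 2.28), Mmp9 (5.96 ± 2.40), Mmp3 (3.95 ± 2.78), Timp3 (3.64 ± 2.17) and Mmp13 (1.83 ± 0.669). No neighbours in this order were separated, since the ranges over the 4 libraries overlapped for each of the 7 neighbouring pairs. Timp3 lay above Mmp13 in 4 of 4 libraries, and the other pairs kept their order in 2 or 3 of 4. By mean RPKM Mmp14 lay above 95.3% of protein-coding genes and 99.2% of olfactory receptor genes, Timp2 above 94.2% and 98.7%, and Mmp13 above 14.4% and 31.0%. Mmp3 and Timp3 lay above 68.7% and 64.4% of the olfactory receptor genes, within the bulk of those genes. Of protein-coding genes they lay above 39.0% and 34.9%.

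**Figure D1:**
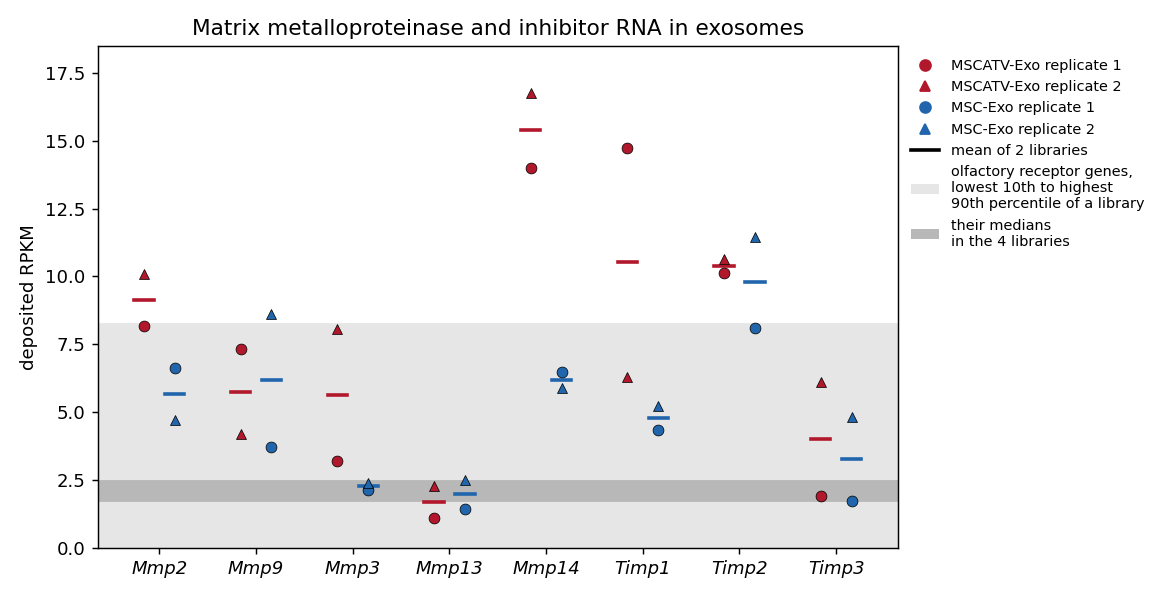
Deposited RPKM (y axis) of the 8 genes in each library, MSCATV-Exo in red and MSC-Exo in blue, with circles for replicate 1, triangles for replicate 2 and a bar for the mean of 2 libraries. The light band runs from 0 to 8.24 RPKM, the lowest 10th to the highest 90th percentile of olfactory receptor genes in a library, and the dark band spans their 4 medians; Mmp14 in MSCATV-Exo lies well above both bands, at 14.01 and 16.8 RPKM.

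The comparison between the groups asks how the RNA content of exosomes differed after atorvastatin pretreatment of the parent cells. Of the 8 genes, Mmp14, Mmp3, Timp1 and Mmp2 had both MSCATV-Exo values above both MSC-Exo values, while Mmp9, Mmp13, Timp2 and Timp3 overlapped between the groups. The shift was 2.67-fold for Mmp14 and 1.72-fold for Mmp2 in mean normalised CPM, and no member had both MSCATV-Exo values below both MSC-Exo values. None passed the test: edgeR's quasi-likelihood test called 0 of 33480 genes (0%) at a Benjamini-Hochberg adjusted p under 0.05, and 1236 genes (3.69%) had an unadjusted p under 0.05, among them Mmp14 and no other member. DESeq2 called 106 of the 32181 genes with an adjusted p (0.329%), 51 of them higher in MSCATV-Exo (0.158%), and Mmp14 was the 1 member among them. Over all genes tested the groups were apart with MSCATV-Exo higher for 16.1%, against 4 of the 8 members. A positive log2 fold change was found for 7 of the 8 members, Mmp9 at 0.02 among them, and for 49.4% of all genes tested. The median log2 fold change was 0.57 for the members and -0.01 for all genes tested. The members were chosen with earlier results of these data known, so the contrasts with all genes are description and not a test. Without MSC-Exo replicate 1, 4 of the 8 were positive (median 0.49), and without MSC-Exo replicate 2 all 8 were (median 1.03). Protein-coding genes above a mean of 20 RPKM, a level that no member reached, also stood higher in MSCATV-Exo (262 of 347, median log2 fold change 0.24), while 372 of 815 tested olfactory receptor genes were positive (median -0.15); the part of such shifts in the members' values was not tested.

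Among the gelatinases, which cut denatured collagen and basement membrane collagen, Mmp2 (chromosome 19, 15542771 to 15570589, minus strand, Rnor_6.0) had 148 and 172 counts in MSCATV-Exo, against 108 and 77 in MSC-Exo. Both libraries of cells given atorvastatin were above both of cells given DMSO. Mean normalised CPM, CPM with libraries scaled by TMM factors, was 28.9 ± 2.53 in MSCATV-Exo and 16.8 ± 3.81 in MSC-Exo (SD, n = 2 each). The log2 fold change of MSCATV-Exo over MSC-Exo was 0.78 ± 0.40 (SE of the edgeR fit; 95% interval -0.10 to 1.67; edgeR adjusted p = 1.00), and it stayed between 0.57 and 1.03 with each library left out in turn. Per length, Mmp2 had 8.18 and 10.1 RPKM in MSCATV-Exo and 6.63 and 4.73 RPKM in MSC-Exo.

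Mmp9 (chromosome 3, 161413410 to 161421473, plus strand), the gelatinase known from neutrophils and osteoclasts, had 130 and 70 counts in MSCATV-Exo, against 59 and 138 in MSC-Exo. The high and the low library of each group lay at like levels, so the groups overlapped fully. Its log2 fold change was 0.02 ± 0.55 (SE), with a 95% interval from -1.19 to 1.22 that leaves room for a change of more than 2-fold either way. The replicates differed by more than counting error: in MSC-Exo the exact Poisson 95% interval of the count was 44.9 to 76.1 for replicate 1 and 116 to 163 for replicate 2. Of 15 leukocyte markers, 3 had a mean above the 90th percentile of olfactory receptor genes, and their summed level was 63.3 and 60.0 RPKM in MSCATV-Exo and 78.9 and 82.1 RPKM in MSC-Exo. Ptprc, which encodes the pan-leukocyte antigen CD45, was at 1.1 and 1.9 RPKM in MSCATV-Exo and 3.7 and 1.9 RPKM in MSC-Exo, near the olfactory receptor median, and the part of such cells in the Mmp9 value was not tested.

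The stromelysin gene Mmp3 (chromosome 8, 5676608 to 5698579, plus strand), whose product cuts proteoglycans and activates other proenzymes, had 30 and 71 counts in MSCATV-Exo, against 18 and 20 in MSC-Exo. The groups did not overlap, although MSCATV-Exo replicate 2 carried most of the difference. Mean normalised CPM was 9.08 ± 5.07 in MSCATV-Exo and 3.45 ± 0.290 in MSC-Exo (SD, n = 2 each). The log2 fold change of 1.39 ± 0.88 (SE; 95% interval -0.54 to 3.33; edgeR adjusted p = 1.00) was 0.67 when MSCATV-Exo replicate 2 was left out and 1.87 when replicate 1 of that group was. In MSC-Exo, Mmp3 stood at 0.868 and 1.01 times the olfactory receptor median of the same library, and in MSCATV-Exo at 1.88 and 3.55 times.

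Over 12155 of its 21972 bases the Mmp3 gene overlaps Mmp1b on the opposite strand. The library kit does not mark strand, so strand cannot assign reads there to either gene. These are whole gene spans, and overlap of exons was not examined. Mmp1b itself had 0 and 10 counts in MSCATV-Exo, against 19 and 8 in MSC-Exo.

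Mmp13 (chromosome 8, 5522739 to 5533018, plus strand), which encodes the main interstitial collagenase of rodents and is typical of bone and cartilage cells, was the lowest of the 8. Its counts were 17 and 33 in MSCATV-Exo, against 20 and 35 in MSC-Exo, and the groups overlapped. At 1.10 and 2.27 RPKM in MSCATV-Exo and 1.44 and 2.51 RPKM in MSC-Exo it lay at 0.582 to 1.07 times the olfactory receptor median. The log2 fold change was -0.15 ± 1.02 (SE; 95% interval -2.40 to 2.10), an interval that reaches past 4-fold in either direction. The replicates differed 2.06-fold in RPKM in MSCATV-Exo and 1.75-fold in MSC-Exo. The parts of low counts and of spread between libraries in the width of that interval were not tested. Markers of osteoblasts, in which Mmp13 is typically active, had 2 of 7 positive and 5 of 7 negative log2 fold changes (median -0.25, with 0 called), and their summed level was 31.2 and 25.8 RPKM in MSCATV-Exo and 34.4 and 36.2 RPKM in MSC-Exo; the part of such cells was not tested.

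Mmp14 (chromosome 15, 33074441 to 33083666, plus strand) encodes the membrane-type protease that cuts fibrillar collagen at the cell surface and activates the product of Mmp2. It had 204 and 230 counts in MSCATV-Exo, against 85 and 77 in MSC-Exo. The groups were far apart and each was narrow, with a replicate ratio in RPKM of 1.20 in MSCATV-Exo and 1.10 in MSC-Exo. Mean normalised CPM was 39.2 ± 2.60 in MSCATV-Exo and 14.7 ± 0.882 in MSC-Exo (SD, n = 2 each). The log2 fold change was 1.41 ± 0.36 (SE), and its 95% interval ran from 0.61 to 2.22.

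By unadjusted edgeR p Mmp14 ranked 33 of 33480 genes, but the edgeR adjusted p was 1.00, whereas DESeq2 gave it an adjusted p of 0.0128. Over 15 alternatives its adjusted p ranged from 0.0128 to 1.00, its log2 fold change was positive in 15 of 15, and it was called in 1 of them. With each library left out in turn the log2 fold change stayed between 1.35 and 1.48. Per length it stood at 14.01 and 16.8 RPKM in MSCATV-Exo, above 99.1% and 99.7% of olfactory receptor genes in those libraries, and at 6.49 and 5.87 RPKM in MSC-Exo, above 82.2% and 83.0% of them.

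The 3 protein-coding genes with a mean of at least 32 CPM whose centred log2 CPM over the 4 libraries lay nearest to that of Mmp14 were Rps24, Pde4c and Pex26, at Euclidean distances of 0.334, 0.358 and 0.383 among 2814 candidates. Pde4c, for example, had 68.5 and 65.4 normalised CPM in MSCATV-Exo and 31.9 and 31.4 in MSC-Exo. With 4 libraries, many genes can share such a pattern.

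**Figure D2:**
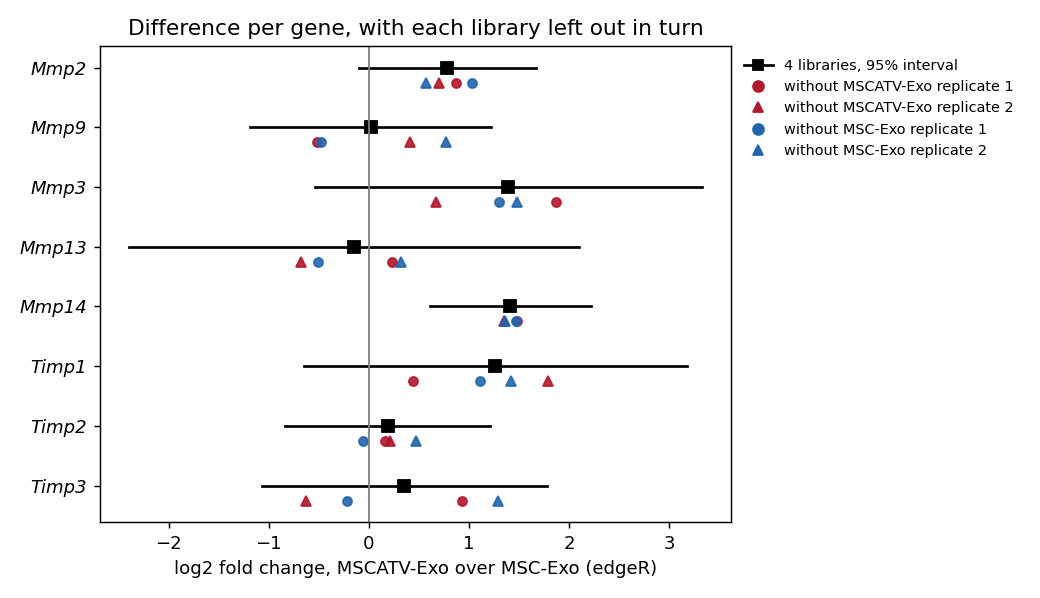
Log2 fold change of MSCATV-Exo over MSC-Exo (x axis, edgeR) for each of the 8 genes, as a square with its 95% interval from all 4 libraries and, beneath it, the value with each library left out. The interval of Mmp14 (0.61 to 2.22) is the 1 interval that lies wholly on one side of 0, and the values for Mmp9, Mmp13, Timp2 and Timp3 change sign as libraries are left out.

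Among the inhibitors, Timp1 (chromosome X, 1364771 to 1369451, minus strand), an inducible TIMP that also binds the proenzyme of Mmp9, had 72 and 29 counts in MSCATV-Exo, against 19 and 23 in MSC-Exo. MSCATV-Exo replicate 1 was high, and replicate 2 lay just above the MSC-Exo libraries. Mean normalised CPM was 9.17 ± 5.66 in MSCATV-Exo and 3.81 ± 0.550 in MSC-Exo (SD, n = 2 each), with a log2 fold change of 1.26 ± 0.87 (SE; 95% interval -0.65 to 3.18; edgeR adjusted p = 1.00). It was 0.44 when MSCATV-Exo replicate 1 was left out and 1.79 when replicate 2 of that group was. The library that was high for Timp1 was not the one that was high for Mmp3. The whole Timp1 gene lies within the span of Syn1, a synapsin gene on the opposite strand, which had 35 and 34 counts in MSCATV-Exo and 54 and 58 in MSC-Exo.

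Timp2 (chromosome 10, 107338465 to 107386072, minus strand), the inhibitor that links the product of Mmp14 to the proenzyme of Mmp2, had 100 and 99 counts in MSCATV-Exo, against 72 and 102 in MSC-Exo. It varied least of the 8 genes relative to its mean, and the groups overlapped. The log2 fold change was 0.19 ± 0.46 (SE; 95% interval -0.84 to 1.21), with 18.0 ± 0.460 normalised CPM in MSCATV-Exo and 15.8 ± 4.00 in MSC-Exo (SD, n = 2 each). Cep295nl lies within the Timp2 span on the same strand and had 353 and 432 counts in MSCATV-Exo and 289 and 350 in MSC-Exo.

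Timp3 (chromosome 7, 23543125 to 23594170, minus strand), which stays bound to the matrix and also blocks several ADAM proteases, had 51 and 155 counts in MSCATV-Exo, against 42 and 117 in MSC-Exo. In each group replicate 2 was the high library, and the spread between replicates was 3.23-fold in RPKM in MSCATV-Exo and 2.78-fold in MSC-Exo, more than the 1.28-fold difference between group means of normalised CPM. Its log2 fold change of 0.35 ± 0.65 (SE; 95% interval -1.07 to 1.78) became -0.63 without MSCATV-Exo replicate 2 and 1.29 without MSC-Exo replicate 2. Like Timp1, Timp3 lies wholly inside a synapsin gene on the opposite strand, here Syn3, which had 62 and 75 counts in MSCATV-Exo and 117 and 33 in MSC-Exo.

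Ratios within a library do not depend on its scaling. Mmp14 stood at 1.38 and 1.58 times the RPKM of Timp2 in MSCATV-Exo, against 0.801 and 0.512 times in MSC-Exo, so protease RNA exceeded inhibitor RNA for this pair in both MSCATV-Exo libraries and in neither MSC-Exo library. An exact two-sided permutation test of the log2 ratios gave p = 0.333, the smallest that 2 libraries against 2 allow. The ratio of Mmp2 to Timp2 was 0.808 and 0.948 in MSCATV-Exo and 0.819 and 0.412 in MSC-Exo and overlapped. Mmp9 over Timp1 ran the other way without overlap, at 0.497 and 0.665 in MSCATV-Exo and 0.855 and 1.65 in MSC-Exo (exact two-sided permutation p = 0.333). Summed over the members, metalloproteinase RPKM was 1.26 and 1.80 times inhibitor RPKM in MSCATV-Exo and 1.44 and 1.12 times in MSC-Exo, which also overlapped (exact two-sided permutation p = 0.667). The summed RPKM of all 8 was 60.6 and 64.5 in MSCATV-Exo and 34.5 and 45.6 in MSC-Exo. Both kinds of gene contributed, with sums of 33.8 and 41.4 RPKM in MSCATV-Exo and 20.4 and 24.1 RPKM in MSC-Exo for the 5 metalloproteinases, and of 26.7 and 23.1 RPKM in MSCATV-Exo and 14.2 and 21.5 RPKM in MSC-Exo for the 3 inhibitors. Timp2 made up 16.7% and 16.5% of the summed RPKM of the 8 genes in MSCATV-Exo and 23.5% and 25.1% in MSC-Exo, and Mmp14 made up 23.1% and 26.0% in MSCATV-Exo and 18.8% and 12.9% in MSC-Exo.

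**Figure D3:**
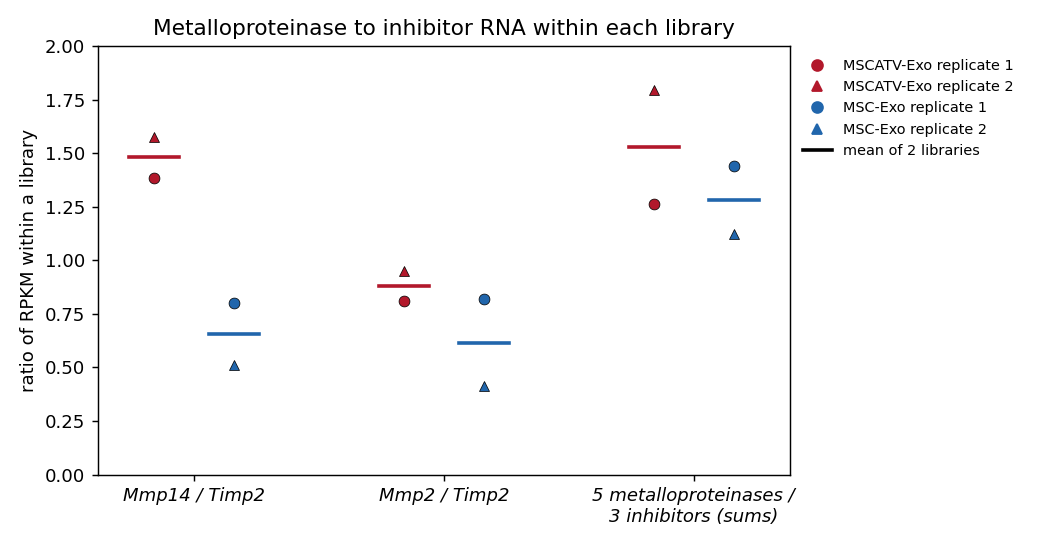
Ratio of RPKM within each library (y axis) for Mmp14 over Timp2, Mmp2 over Timp2 and the 5 metalloproteinases over the 3 inhibitors, MSCATV-Exo in red and MSC-Exo in blue, with a bar for the mean of 2 libraries. For Mmp14 over Timp2 the MSCATV-Exo libraries (1.38 and 1.58) lie above the MSC-Exo libraries (0.801 and 0.512). For the other ratios shown the groups overlap, and Mmp9 over Timp1 is not shown.

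Mmp3 and Mmp13 belong to a cluster of 10 metalloproteinase genes on chromosome 8 between 5522739 and 5900965. The cluster as a whole was low in every library, and no gene in it exceeded 8.07 RPKM, the value of Mmp3 in MSCATV-Exo replicate 2. Mmp20, which encodes the enamel protease enamelysin and is known from developing teeth, had 0.868 and 5.12 RPKM in MSCATV-Exo and 0.964 and 1.93 RPKM in MSC-Exo, a range that spans the values of Mmp13. Mmp8, the neutrophil collagenase, had 4.63 and 5.16 RPKM in MSCATV-Exo and 2.76 in each MSC-Exo library, and was higher in both MSCATV-Exo libraries as Mmp3 was (log2 fold change 0.92 ± 0.87, SE). Mmp10, a stromelysin beside it, ran the other way, with 1.28 and 1.47 RPKM in MSCATV-Exo and 2.20 and 7.46 RPKM in MSC-Exo (log2 fold change -1.71 ± 1.03, SE; -2.35 to -0.56 with each library left out; edgeR adjusted p = 1.00).

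**Figure D4:**
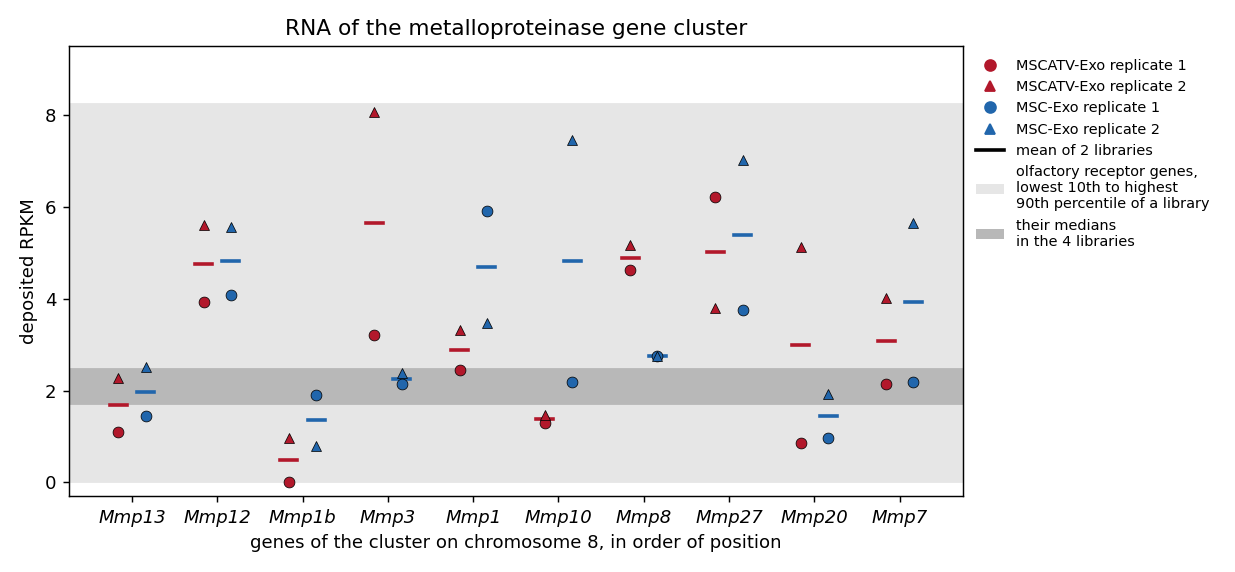
Deposited RPKM (y axis) of the 10 metalloproteinase genes of the chromosome 8 cluster in order of position (x axis), with groups, symbols and bands as for the plot of the 8 genes by library. Every value lies within the light band, which ends at 8.24 RPKM, the highest 90th percentile of olfactory receptor genes in a library. Mmp3 in MSCATV-Exo replicate 2 is the highest at 8.07 RPKM, above 92.2% of those genes in its own library. Mmp10 in MSC-Exo replicate 2 lies above 90.2% of them in its own.

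The related genes gave 0 edgeR calls. Of 17 tested metalloproteinase genes outside the members, 9 had positive and 8 negative log2 fold changes (median 0.01), and with total-count scaling 5 were positive. Mmp25, a membrane-type protease of leukocytes and the highest of them, had 10.5 and 4.08 RPKM in MSCATV-Exo and 13.6 and 9.03 RPKM in MSC-Exo (log2 fold change -0.49 ± 0.60, SE). Among 9 tested genes listed with the protease inhibitors of the matrix 7 were positive (median 0.18). Not all of them are inhibitors of matrix proteases, and Pcolce, among the positive ones at 0.03, is not. The fourth TIMP gene, Timp4, was at 0.38 ± 0.71 and Reck, a membrane-anchored inhibitor of metalloproteinases, at 0.31 ± 0.39 (log2 fold change, SE).

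Of 15 activators and partners of metalloproteinases, 11 were positive and 4 negative (median 0.28). Furin, which encodes the proprotein convertase that activates the product of Mmp14, had 247 and 232 counts in MSCATV-Exo and 171 and 149 in MSC-Exo, with no overlap (log2 fold change 0.58 ± 0.31, SE). Itgb1, the integrin subunit that was the most abundant of them, was at 0.32 ± 0.23. The ADAM, ADAMTS and astacin proteases split evenly, with 12 of 23 positive (median 0.00111), and Bmp1, the procollagen C-proteinase, had the smallest p (log2 fold change -0.75 ± 0.38, SE; edgeR adjusted p = 1.00).

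Matrix substrates of these enzymes had 13 of 21 positive (median 0.04). Lamb1, a laminin chain of basement membranes, had 328 and 238 counts in MSCATV-Exo and 99 and 136 in MSC-Exo (log2 fold change 1.26 ± 0.35, SE; edgeR adjusted p = 1.00; DESeq2 adjusted p = 0.0437). The matrix protein gene Sparc, at 220.0 and 243 RPKM in MSCATV-Exo and 183 and 200.0 RPKM in MSC-Exo, was far above every metalloproteinase. Col1a2, a chain of type I collagen, was listed at 0 in all 4 libraries while Col1a1 stood between 27.8 and 41.9 RPKM. Whether reads of Col1a2 could be counted at all was not examined, so its RNA cannot be called absent. Of 19 tested regulators of metalloproteinase transcription 14 were positive (median 0.13), with Twist1, a mesenchymal transcription factor, at 154 and 77 counts in MSCATV-Exo and 15 and 43 in MSC-Exo (log2 fold change 1.99 ± 0.67, SE; 1.37 to 2.95 with each library left out; edgeR adjusted p = 1.00). Genes for markers of exosomes had 8 of 8 positive log2 fold changes (median 0.32; 5 of 8 with total-count scaling), with Cd63 at 16.8 and 17.6 RPKM in MSCATV-Exo and 20.5 and 14.9 RPKM in MSC-Exo. Positive values were found for 5 of 12 MSC markers (median -0.03), 5 of 14 tested leukocyte markers (-0.12), 5 of 8 endothelial markers (0.26) and 2 of 7 tested erythroid markers (-0.24), and the part of any such cells or vesicles in the members' values was not tested.

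The authors' deposited table of gene comparisons gives 4 of the 8 members a q-value under 0.05, all higher in MSCATV-Exo. In the authors' deposited table the log2 ratio of mean RPKM was 1.32 for Mmp14 (q = 4.02e-11), 1.32 for Mmp3 (q = 0.00334), 1.14 for Timp1 (q = 0.00802) and 0.69 for Mmp2 (q = 0.00156). Over all 38021 genes of the authors' deposited table, 12.4% were higher and 21.9% lower at that threshold. The test behind those q-values is not given in the sources used here.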

How the data were processed

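Per the submitters' processing notes, TopHat2 and the rat build rn6 (Rnor_6.0) were used; the counter and annotation release are not given in the sources used here. Each gene has a raw read count and an RPKM value as deposited by the authors; RPKM recomputed from counts, length and each library's gene total matched 100.0% of the deposited values within 0.1%. The authors' deposited comparison table gives, per the file headers, mean RPKM, a log2 ratio, and p-values with q-values. Per the labels' protocols, the kit was NEBNext Ultra, which does not mark strand.

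The whole count table was fitted in edgeR 4.0.16 under R 4.3.3 (TMM factors, genes kept by filterByExpr, 33480 with all 8 members among them, two-sided quasi-likelihood F test, Benjamini-Hochberg adjustment over all genes tested, threshold 0.05), after a check on simulated data. SEs and 95% intervals come from that fit. Alternatives were DESeq2 1.42.0, other scalings, filters and gene sets, the replicate number as a block, each library left out, and limma 3.58.1 on log2(RPKM + 1) or log2(RPKM + 0.1), with a mean RPKM of at least 1 or no filter. The members and lists were chosen with earlier results of these data known. Named from each list were its member of highest mean RPKM and its tested member of smallest p; Mmp1b, Mmp8, Mmp20, Timp4, Reck, Ptprc, Thy1, Nt5e, Col1a1, Col1a2 and the genes overlapping members were added after their values were seen. Poisson intervals and floors hold for counting error alone: with no molecular identifiers, reads are not separate molecules. Sequences were not used here, and 1 gene that the rule names is not reported here.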

Additional observations from a re-analysis of the deposited data

How the results depend on the processing

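The log2 fold changes of Mmp14, Mmp2, Mmp3 and Timp1 stayed positive under every alternative in which each was tested (15, 14, 14 and 14). The call of Mmp14 was made by DESeq2 (log2 fold change 1.42) and by no other alternative. Mmp9 turned negative with total counts (-0.10) and in the limma fits on log2(RPKM + 1) (-0.0332, with or without the filter) and log2(RPKM + 0.1) (-0.0289), and ranged from -0.52 (without MSCATV-Exo replicate 1; -0.48 without MSC-Exo replicate 1) to 0.77 as libraries were left out. In the same way Mmp13 ranged from -0.68 to 0.32 (positive without MSCATV-Exo replicate 1, 0.23, or MSC-Exo replicate 2), Timp2 from -0.0590 (without MSC-Exo replicate 1) to 0.47, and Timp3 from -0.63 (without MSCATV-Exo replicate 2; -0.22 without MSC-Exo replicate 1) to 1.29. The cause was not tested. The number of members with a positive value, 7 of 8, was 6 with total-count scaling and in the limma fits. It ranged from 4 (without MSC-Exo replicate 1) to 8 (without MSC-Exo replicate 2) as libraries were left out. It was 2 of the 2 tested when only genes above 3 times the olfactory receptor median (8.17 RPKM) were kept, where fewer genes were tested.

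The count of genes past the threshold, 0 with edgeR on all libraries, was 106 with DESeq2, 8 with no filter on low counts, 1 with only genes above 8.17 RPKM, and 1 to 168 with a library left out (168 and 27 when MSCATV-Exo replicate 2 or 1 was omitted, 2 and 1 when MSC-Exo replicate 2 or 1 was). In those fits the lone library is assumed to vary like the other group. With the replicate number as a block 4 genes were called, none of them a member. Over 27334 genes the Pearson r of log2(CPM + 0.5) was 0.679 between the MSCATV-Exo libraries and 0.738 between the MSC-Exo libraries. Between libraries of different groups it ran from 0.676 to 0.741, so over these genes the libraries did not separate by group. Same-numbered libraries did not deviate together over the same genes as a whole (correlation -0.00701). That value cannot decide whether they shared a rat, dish or batch, which the labels do not say. Total-count scaling moved the median of all genes to -0.11 from -0.01, and that of the members to 0.48 from 0.57. Counts of 17 to 35 for Mmp13 and 18 to 71 for Mmp3 limit what can be seen for the lowest members.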
